A study of Mus musculus with 14 samples.

Results

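Models of type 2 diabetes in mice were compared gene by gene in the intervertebral disc, to ask which genes responded to both, which responded in opposite directions and which responded in 1 model. All 14 libraries of the study entered 1 fit of 4 group means, and 16915 of the 55487 genes in the deposited count table passed the filter on low counts and were tested. The leptin receptor (Lepr) model had 3 db/db mice, homozygous for the Lepr mutation and therefore obese and hyperglycaemic, and 3 db/+ heterozygous mice as controls, all male and 12 weeks old. The induced model had 4 male C57BL/6J mice (STZ-HFD) that ate a high-fat diet for 4 to 6 weeks, received 100 mg/kg of the beta-cell toxin streptozocin and stayed on the diet for 12 more weeks, and 4 male C57BL/6J controls on chow given citrate buffer (Con+Veh, called Wild-type in the labels). RNA came from flash-frozen, pulverised whole tail discs, with the discs of 1 mouse pooled, so each library is 1 mouse. Age, diet and treatment schedule all differed between the models, and what belongs to the type of diabetes and what belongs to these cannot be told apart. The db/db response is the log2 fold change of db/db against db/+, the STZ-HFD response that of STZ-HFD against Con+Veh, and the difference of responses is the STZ-HFD response minus the db/db response. The models share no library, so neither response was computed from samples of the other.

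The disc is a fibrocartilage: a proteoglycan-rich nucleus pulposus inside a collagenous annulus fibrosus, bounded by cartilage endplates and vertebral bone, with almost no blood vessels. Its cells rely mainly on glycolysis, and aggrecan, type II collagen and small leucine-rich proteoglycans make up the matrix they keep. Leptin receptor loss gives hyperphagia and insulin resistance with very high insulin, whereas streptozocin damages beta cells and limits insulin release. Dissected tail discs can also carry muscle, fat, bone and blood cells. In bulk tissue, fewer cells of a type and less RNA per cell cannot be told apart.

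Library totals ran from 16076908 to 58943169 counts. Ribosomal RNA genes took 28.06% to 39.65% of them in the Lepr model and 44.36% to 60.25% in the induced model, so this share differed with the model too. The quality weights of the fit ran from 0.275 (Con+Veh replicate 1) to 3.05 (Con+Veh replicate 3). Log2 changes come from this weighted fit on the log scale, while group means and SDs of CPM are unweighted. A log2 change can therefore differ in size from the ratio of the printed CPM means. All 20 chondrocyte markers were tested, and their summed level, in CPM (counts scaled to library size), was 38415 to 58922 in db/+, 17542 to 45351 in db/db, 3881 to 16746 in Con+Veh and 1203 to 2265 in STZ-HFD. The 22 fast muscle sarcomere genes summed to 22089 to 27804 CPM in db/+, 9990 to 20068 in db/db, 24174 to 51687 in Con+Veh and 28227 to 77302 in STZ-HFD, and none was at 0 in any library. The share of chondrocyte RNA was thus lower in the control discs of the induced model than in those of the Lepr model, and the fast muscle genes were higher there, with a mean log2 CPM of 7.30 to 8.25 in db/+ and 8.35 to 8.72 in Con+Veh, although their summed CPM, led by Ttn, overlapped. The part of these differences between cohorts in the comparison of responses was not tested. The 25 tested macrophage markers summed to 172 to 517 CPM over all libraries. Of 22 neutrophil granule genes 4 passed the filter, of 20 B and T lymphocyte markers 7, of 20 epidermal markers 8 and of 16 erythroid markers 9.

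Over the whole transcriptome the estimated responses of the models were only weakly correlated. Across 16915 genes Pearson's r between the responses was 0.0779 and Spearman's rho 0.0923, and 54.1% of genes had the same sign in both. These are descriptions across genes, which are not independent replicates, and both responses were estimated with 1 shared spread. The responses had like sizes, with medians of -0.04 in each and SDs of 0.68 and 0.71 on the log2 scale. The mean squared SE of the estimates was 118% of the variance of the db/db responses across genes and 53.2% of that of the STZ-HFD responses. Independent errors of this size pull r towards 0 and the same-sign share towards 50%, so these values do not measure how far the true responses of the models agree. In the tenth of genes with the highest db/db response (median log2 1.06) the median STZ-HFD response was 0.15, and in the tenth with the lowest (median -1.06) it was -0.02. Read the other way, the tenth with the highest STZ-HFD response (median 1.06) had a median db/db response of 0.00 and the tenth with the lowest (median -1.18) one of -0.17. These bins were formed on estimates with this error, so medians nearer 0 in the other model follow in part from the binning, whatever the true agreement.

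An unadjusted p under 0.05 was reached by 1813 genes that were higher and 1759 that were lower in db/db (10.7% and 10.4% of genes), and by 1411 higher and 1614 lower in STZ-HFD (8.34% and 9.54%). In both models at once 719 genes reached it, of which 237 were higher in both, 171 lower in both, 122 higher in db/db and lower in STZ-HFD, and 189 lower in db/db and higher in STZ-HFD. The same sign was thus seen in 56.7% of them. The 281 genes called in db/db, by an adjusted p under 0.05 (limma, Benjamini-Hochberg over all genes tested) and a log2 change of at least 1, had the same sign in STZ-HFD in 63.7%, and the 441 called in STZ-HFD had the same sign in db/db in 52.6%. The calls made up 1.23% (up) and 0.432% (down) of genes in db/db and 1.3% and 1.31% in STZ-HFD. The libraries of both groups did not overlap for 25.8% of genes in the Lepr model, with 3 against 3, and for 4.74% in the induced model, with 4 against 4.

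**Figure D1:**
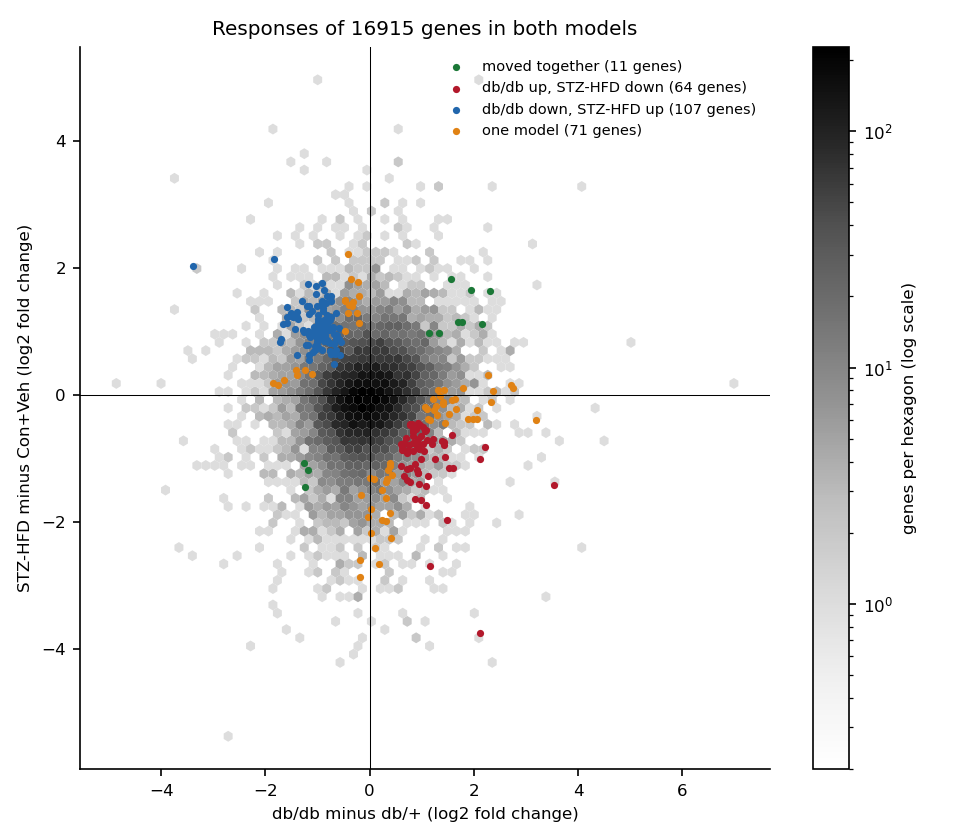
Response of every tested gene in both models: log2 fold change of db/db against db/+ on the x axis, of STZ-HFD against Con+Veh on the y axis, with grey hexagons for the 16915 genes (darker for more genes) and coloured points for the genes that moved together (11), oppositely (64 and 107) or in 1 model (71). The grey cloud is nearly round (r = 0.0779). The coloured points fill the corners of opposite sign more than those of the same sign, but the rules behind the colours are not equally strict. Counted by like rules, 249 genes moved together and 171 oppositely.

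The estimated correlation differed between kinds of gene. Errors of the estimates, which pull r towards 0, can differ between these kinds too, and their part was not tested. By expression level r ran from 0.0436 among the genes with the lowest mean expression to 0.105 in the middle and 0.146 among the highest, in 3 equal groups. From low to high, the SDs of the responses were 0.8682, 0.5912 and 0.535 in db/db and 0.9465, 0.568 and 0.556 in STZ-HFD. Protein-coding genes (13622) had r = 0.117, while 778 processed pseudogenes had -0.0314, 529 antisense genes 0.000154 and 410 lincRNAs 0.0574. The counting's use of strand is not given in the sources used here, so reads of an antisense gene and its partner may be mixed. The db/db response ran with the GC content of the gene (rho -0.428 over 16899 genes), with medians of 0.32 to -0.42 from the lowest to the highest of 5 equal GC groups, while the STZ-HFD response hardly did (rho -0.0807, medians 0.02 to -0.10). In the lowest GC group 78 genes were higher in both models at an unadjusted p under 0.05 and 3 were lower in both, and in the highest group 21 and 96. Within the 5 groups r was 0.0619, 0.106, 0.0499, 0.00474 and 0.0646 from low to high GC. The part of GC content in the direction shared by both models was not tested beyond these values.

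By the strict rule of an adjusted p under 0.05 in each model and the same sign, 11 genes moved together, 8 up and 3 down. A called difference of responses (adjusted p under 0.05 and at least 1 on the log2 scale) was found for 161 genes with the higher and 138 with the lower response in STZ-HFD (0.952% and 0.816% of genes). Of these, 171 had opposite signs with an unadjusted p under 0.05 in each model, 64 higher in db/db and lower in STZ-HFD and 107 the reverse. These rules are not equally strict. With the rule for opposite genes applied to the sum of the responses, a count chosen after seeing the data, 156 genes moved together up and 93 down, against a background of 1.72% and 1.18% of genes with a called sum. Counted alike, then, 249 genes moved together and 171 oppositely, and all 11 genes of the strict rule were among the 249. Which tool and which libraries were used set these numbers. edgeR's quasi-likelihood test called 0 genes together by the strict rule, 2 by the sum and 5 oppositely, and voom without quality weights 0, 6 and 3. At an unadjusted p under 0.05 in both models edgeR had 127 genes with the same sign and 154 with opposite signs, and voom without weights 134 and 140, against 408 and 311 with the weights. Without STZ-HFD replicate 3, r was -0.0124, 0 genes moved together by the strict rule, 22 by the sum and 20 oppositely. Without Con+Veh replicate 3 the counts were 0, 28 and 4, without Con+Veh replicate 4 they were 0, 52 and 78, and without db/+ replicate 2 they were 2, 150 and 16. Without Con+Veh replicate 2 the counts were 37, 509 and 142, and without STZ-HFD replicate 2 they were 32, 474 and 96.

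**Figure D2:**
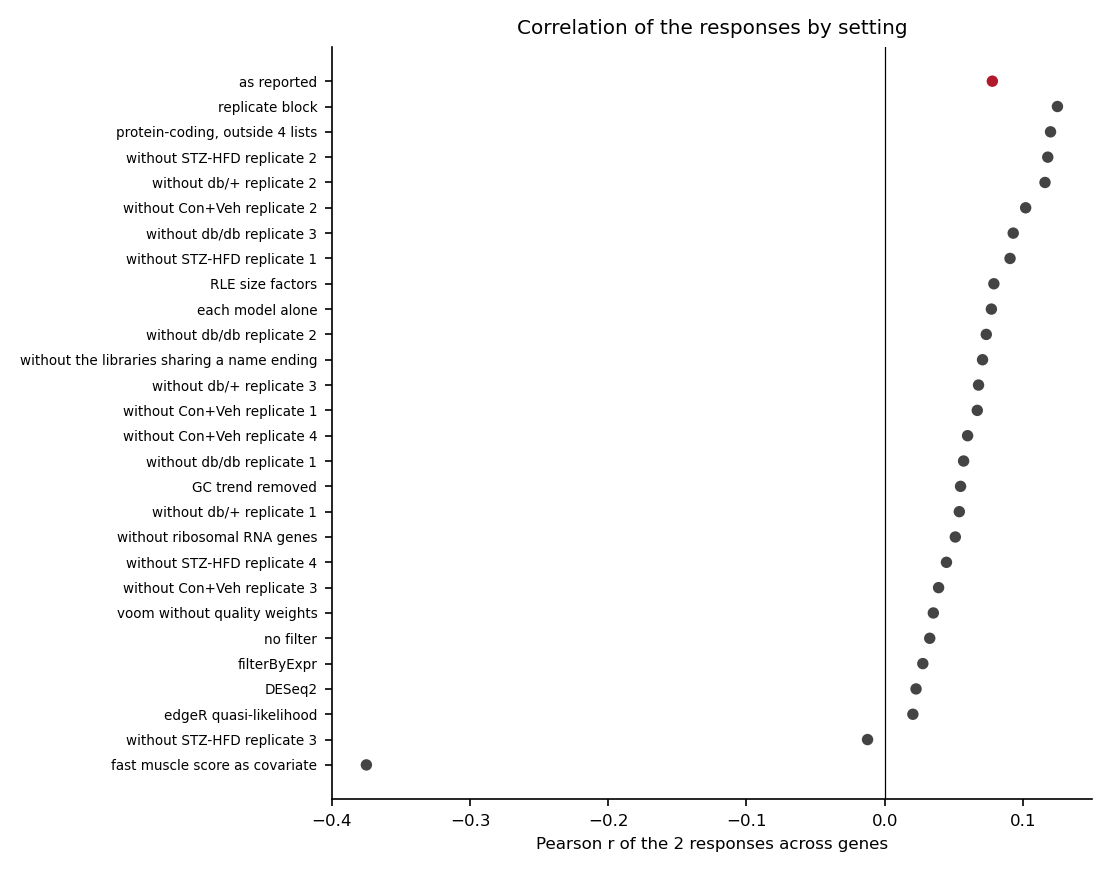
Pearson's r between the db/db and STZ-HFD responses (x axis, no unit) under each processing choice and with each library left out (y axis), with the value of the full fit as a red point and a line at 0. The values run from -0.375 with a fast muscle score as a covariate to 0.125 with the replicate number as a block, and leaving out STZ-HFD replicate 3 takes r to -0.0124.

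Of the 8 genes that rose in both models 5 belonged to any of the 54 lists, against 1259 of all 16915 genes tested, and no list held more than 1 of the 8. Catalase (Cat), the peroxisomal enzyme that breaks down hydrogen peroxide, measured 56.7, 48.7 and 41.8 CPM in db/+ and 151, 168 and 158 in db/db, without overlap. In the induced model it measured 26.6, 102, 68.6 and 46.5 in Con+Veh and 141, 76.4, 212 and 105 in STZ-HFD, where the groups overlapped. Its log2 change was 1.70 ± 0.34 (SE) in db/db and 1.15 ± 0.28 in STZ-HFD (limma adjusted p = 0.0239 and 0.0322, Benjamini-Hochberg). Mpc2, a subunit of the mitochondrial pyruvate carrier, measured 14.3, 11.1 and 9.89 CPM in db/+ against 32.1, 22.5 and 23.8 in db/db, and 18.4, 43.3, 19.6 and 23 in Con+Veh against 35.2, 28.4, 56.2 and 43.3 in STZ-HFD. Its changes of 1.14 ± 0.27 and 0.97 ± 0.24 (limma adjusted p = 0.039 and 0.0321) were of like size, and 1 Con+Veh library lay among the STZ-HFD values. Cox6c, a nuclear-encoded subunit of cytochrome c oxidase, changed by 1.33 ± 0.31 and 0.98 ± 0.26 (limma adjusted p = 0.0373 and 0.0492), with the groups separate in the Lepr model (26.8 to 34.5 CPM against 60.2 and more) and overlapping in the induced one (38.8 to 111 against 71.5 to 174).

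Pck1, which turns oxaloacetate into phosphoenolpyruvate in gluconeogenesis and in glyceride synthesis of fat cells, measured 4.49, 1.53 and 3.65 CPM in db/+ and 7.38, 12.9 and 5.78 in db/db. In Con+Veh it measured 3.94, 4.36, 5.40 and 2.50 and in STZ-HFD 12.3, 14.5, 16.2 and 13.9, so neither model's groups overlapped. It rose by 1.57 ± 0.38 and 1.82 ± 0.36 (limma adjusted p = 0.0433 and 0.0154). Nnat, the imprinted gene of neuronatin, a small membrane protein, was at 1.65 to 1.95 CPM in db/+ and 6.00 to 7.43 in db/db, and at 0.679 to 3.85 in Con+Veh and 4.19 to 14.2 in STZ-HFD, again without overlap in either model. Its changes were 1.94 ± 0.41 and 1.65 ± 0.40 (limma adjusted p = 0.0285 and 0.0314). Cd36, a fatty acid uptake receptor, had changes of 2.16 ± 0.31 and 1.12 ± 0.26, and its difference of responses, -1.03 ± 0.40, did not pass (limma adjusted p = 0.187). Aldh1a1, which makes retinoic acid, and Adamts8, a secreted protease, completed the rising genes.

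Of the 3 genes that fell in both models, Loxl3 makes a lysyl oxidase that crosslinks collagen and elastin. It measured 75.4, 103 and 82.2 CPM in db/+ and 36.0, 37.4 and 41.5 in db/db, and 46.8, 15.4, 29.2 and 25.5 in Con+Veh and 7.11, 11.2, 9.32 and 17.4 in STZ-HFD. The change was -1.18 ± 0.27 in db/db and -1.18 ± 0.25 in STZ-HFD (limma adjusted p = 0.0346 and 0.0196), and the difference of responses was 0.00 ± 0.37. Susd5, a gene of a membrane protein with a hyaluronan-binding link domain, was at 174, 214 and 174 CPM in db/+ and 96.6, 51.7 and 98.1 in db/db, and at 81.3 to 133 in Con+Veh and 40.5 to 79.0 in STZ-HFD, without overlap in either model. Glis1, a zinc-finger factor related to the Gli proteins of hedgehog signalling, also separated the groups of both models. Of the 11 genes, 5 had groups that did not overlap in either model (Nnat, Pck1, Adamts8, Glis1 and Susd5), as had 173 of all 16915. All 11 kept both signs in 26 of 26 other fits, but they passed the strict rule in only 5 (Aldh1a1, Cox6c) to 13 (Cd36) of them.

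**Figure D3:**
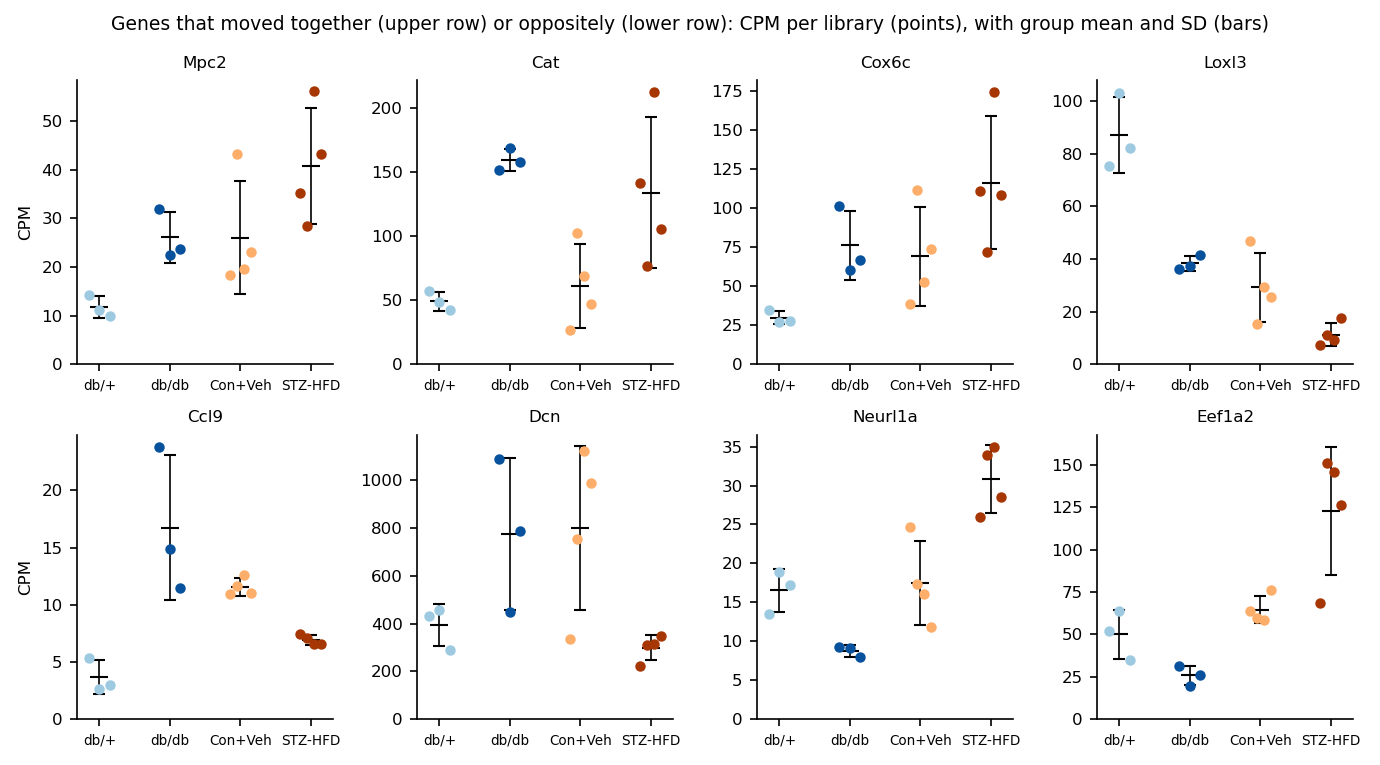
CPM (linear axis from 0) of 4 genes that moved together (Mpc2, Cat, Cox6c, Loxl3) and 4 that moved oppositely (Ccl9, Dcn, Neurl1a, Eef1a2) in each library, with 1 point per mouse, bars for the group mean and SD, with each control group left of its diabetic group along the x axis. Cat has a higher mean in the diabetic group of both models. Every db/db mouse lies at 151 CPM or more and every db/+ mouse at 56.7 or less, while Con+Veh and STZ-HFD overlap. Ccl9 steps up from db/+ to db/db and down from Con+Veh to STZ-HFD.

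The promoters of 2 genes that rose together (Cat and Cd36) and of 2 that moved oppositely are printed to show the sequence before the start of genes from both sets. Each is the window from 250 bases before to 50 after the RefSeq start on GRCm38.p6, read 5′ to 3′ on the strand of the gene, with matches to 5 motifs on either strand in capitals. The first motif is TATAAA, which sets the start site in many tissue-specific genes. The next is CCAAT, bound by the NF-Y factor in many housekeeping genes. Sp1-type factors bind GGGCGG, which is common in CpG islands. The muscle regulators of the MyoD family can bind CAGCTG, an E-box. Nuclear receptors such as the PPARs bind repeats that contain AGGTCA or a variant of it. Cat lies on the minus strand at chr2:103485104-103485403 and Cd36 on the minus strand at chr5:17835847-17836146. Cxcl13, which rose in db/db and fell in STZ-HFD, lies on the plus strand at chr5:95956689-95956988, where matches to the E-box and to the receptor motif share bases. Myh1, which did the reverse, lies on the plus strand at chr11:67199852-67200151.
Cat: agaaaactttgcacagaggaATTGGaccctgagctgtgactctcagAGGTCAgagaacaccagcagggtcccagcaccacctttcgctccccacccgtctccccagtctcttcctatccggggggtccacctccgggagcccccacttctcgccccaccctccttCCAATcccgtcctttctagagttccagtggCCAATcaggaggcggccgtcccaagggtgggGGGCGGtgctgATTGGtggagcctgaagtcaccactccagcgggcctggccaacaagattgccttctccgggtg
Cd36: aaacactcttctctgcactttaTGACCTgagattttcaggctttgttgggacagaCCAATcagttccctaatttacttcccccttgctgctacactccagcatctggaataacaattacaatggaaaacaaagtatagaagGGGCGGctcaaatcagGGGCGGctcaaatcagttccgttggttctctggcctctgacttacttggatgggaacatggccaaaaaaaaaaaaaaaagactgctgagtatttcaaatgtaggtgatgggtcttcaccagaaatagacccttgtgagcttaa
Cxcl13: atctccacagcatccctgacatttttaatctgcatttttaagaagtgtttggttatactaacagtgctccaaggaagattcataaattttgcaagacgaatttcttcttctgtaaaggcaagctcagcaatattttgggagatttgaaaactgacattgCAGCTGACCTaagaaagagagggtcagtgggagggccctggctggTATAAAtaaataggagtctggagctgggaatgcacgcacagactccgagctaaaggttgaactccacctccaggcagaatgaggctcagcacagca
Myh1: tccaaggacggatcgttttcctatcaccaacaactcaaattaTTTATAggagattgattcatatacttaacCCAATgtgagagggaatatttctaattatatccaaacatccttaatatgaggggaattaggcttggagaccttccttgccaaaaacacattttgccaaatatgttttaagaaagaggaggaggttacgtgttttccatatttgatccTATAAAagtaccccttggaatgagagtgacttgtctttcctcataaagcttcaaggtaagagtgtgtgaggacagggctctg

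A single promoter was listed for 9091 of the 16915 genes tested, for 7 of the 11 that moved together, for 44 of the 64 that were higher in db/db and lower in STZ-HFD and for 67 of the 107 of the reverse set. The motif TATAAA was found in 7.85% of all these promoters, in 0 of the 7, in 22.7% of the 44 and in 20.9% of the 67. For the E-box the shares were 15.6% over all and 14.3%, 29.5% and 25.4% in the sets, and for the Sp1-type motif 63.4% over all and 85.7%, 50% and 50.7%. The NF-Y motif was found in 38.2% over all and in 57.1%, 38.6% and 38.8%, and the receptor motif in 12% over all and in 28.6%, 22.7% and 17.9%. The median GC content of the windows was 60.7% over all and 61.7%, 50.7% and 58.7% in the sets. A match of letters in such a window is no measure of binding.

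The wider set placed by the rule on the sum, 156 genes up and 93 down of all 16915 tested, was also read against the lists. The 156 genes higher in both models by the rule on the sum held 6 of 20 adipocyte genes, 6 of 25 fatty acid oxidation genes, 5 of 16 ATP synthase subunits, 5 of 36 complex I subunits, 4 of 13 subunits of complexes II and III and 3 of 20 genes of the TCA cycle and pyruvate entry. The ATP synthase subunit gene Atp5pb averaged 7.16 ± 0.205 CPM (SD, n = 3) in db/+ and 17.0 ± 1.82 in db/db, and 17.2 ± 12.6 (n = 4) in Con+Veh and 29.4 ± 10.6 in STZ-HFD. Its responses were 1.24 ± 0.33 and 1.20 ± 0.29 (SE), and it passed in STZ-HFD (limma adjusted p = 0.0321) and not in db/db (0.0566). Ndufb5 of complex I likewise had 1.36 ± 0.39 (limma adjusted p = 0.0732) and 1.57 ± 0.34 (0.0208). Among the 93 genes lower in both were 4 of 27 collagen modification genes (Loxl2, Loxl3, Loxl4 and the collagen chaperone Fkbp10), 3 of 27 cartilage glycoproteins (Clec3b, Tnc, Cilp2), 3 of 28 proteoglycan genes (Acan, the aggrecan gene, and the syndecans Sdc3 and Sdc4) and 2 of 20 hedgehog genes (Glis1 and the co-receptor Cdon). Acan averaged 6638 ± 2508 CPM in db/+, 3200 ± 1258 in db/db, 1352 ± 290 in Con+Veh and 521 ± 263 in STZ-HFD, and neither model's groups overlapped. Its change was -1.03 ± 0.48 in db/db, which did not pass (limma adjusted p = 0.224), and -1.59 ± 0.32 in STZ-HFD, which did (0.0154).

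Medians over 54 lists of genes by function or cell type are given past the median of all genes (-0.04 in each response), and a list is placed on a side where that median passes 0.25 in size. On the same side in both models were 9 lists, on opposite sides 6, past the limit in db/db alone 6, in STZ-HFD alone 21 and in neither 12. Across the 54 medians r was -0.0109 and rho 0.21, against 0.0779 and 0.0923 across genes. The lists carry no test, and the medians cover the members that passed the filter.

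**Figure D4:**
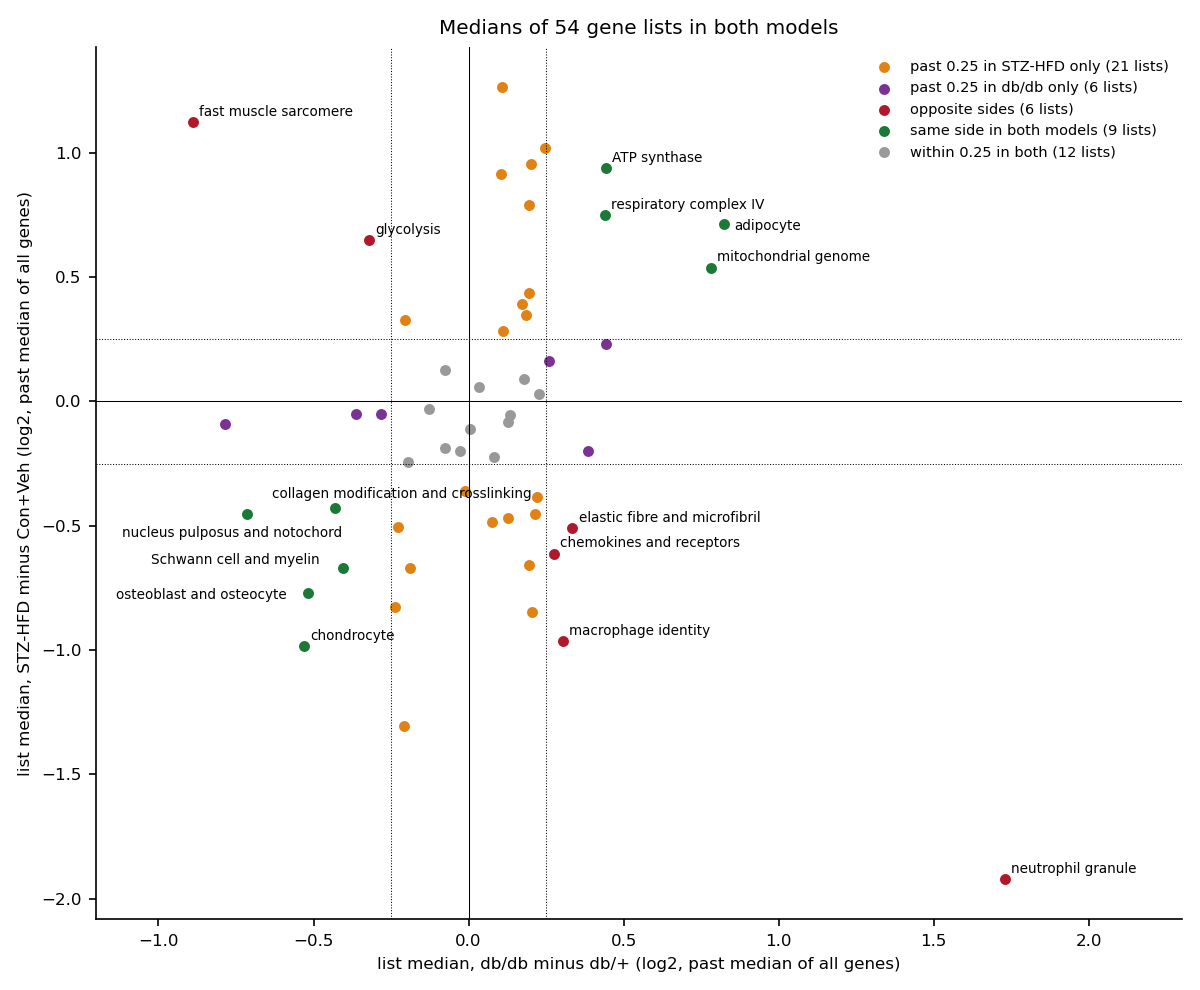
Median response of each of 54 gene lists past that of all genes (log2), db/db on the x axis and STZ-HFD on the y axis, 1 point per list, coloured by whether both medians pass 0.25 on the same side, on opposite sides or in 1 model. Adipocyte genes (0.82 and 0.71) lie upper right, chondrocyte genes (-0.53 and -0.98) lower left, fast muscle (-0.89 and 1.12) upper left and macrophage genes (0.30 and -0.97) lower right.

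Several lists of energy metabolism lay above the median in both models. ATP synthase had medians of 0.44 (db/db) and 0.94 (STZ-HFD) over 16 subunits, and complex IV 0.44 and 0.75 over 14. Of the ATP synthase subunits, 1 was called higher by the db/db response and 4 by the STZ-HFD response, against 6 and 13 higher at an unadjusted p under 0.05. The genes of the mitochondrial genome had 0.78 and 0.54 over 12, with 0 called in either model by limma and, respectively, 1 and 2 higher at an unadjusted p under 0.05. Across everything tested, 10.7% were higher at that p by the db/db response and 8.34% by the STZ-HFD response. With only 12 genes, counts of 1 and 2 do not stand out from these shares. Without STZ-HFD replicate 4 the STZ-HFD median of the mitochondrial genome genes was -0.0486, with edgeR 0.134, and without Con+Veh replicate 2 and STZ-HFD replicate 4 it was 0.0494. Their unweighted mean log2 CPM was 8.705 in both Con+Veh and STZ-HFD. For ATP synthase, complex IV and the mitochondrial genome, the mean log2 CPM overlapped between the groups of both models. Complex I (0.19 and 0.79), complexes II and III (0.246 and 1.02), the TCA cycle (0.10 and 0.92) and fatty acid oxidation (0.20 and 0.95) passed the limit in STZ-HFD alone. This placement held for complexes II and III in 12 of 26 other fits and for complex I in 19. With the GC trend removed, complex I (0.314 and 0.777) and complexes II and III (0.251 and 1.04) lay above the limit in both models. Across the members of a list, r between the responses was 0.68 in complex I (36 subunits), 0.53 in complexes II and III (13), 0.46 in ATP synthase (16), 0.30 in fatty acid oxidation (25), 0.12 in the TCA cycle (20) and -0.02 in complex IV (14). With the GC trend removed these were 0.69, 0.57, 0.27, 0.32, 0.22 and -0.24. Fatty acid oxidation genes were above 0 in STZ-HFD in 25 of 25 and in db/db in 17. Their mean log2 CPM was 3.26 to 3.38 in Con+Veh and 4.05 to 4.58 in STZ-HFD, without overlap, and 2.60 to 2.98 in db/+ and 2.92 to 3.43 in db/db, with overlap. Pdk4, the kinase that shuts pyruvate dehydrogenase when fat is burned, went from 16.1 ± 4.89 CPM (SD, n = 4) to 117 ± 38.2 in STZ-HFD (log2 2.80 ± 0.28 SE, limma adjusted p = 7.43e-05) and stood at 7.35 ± 2.08 (n = 3) in db/+ and 12.3 ± 4.50 in db/db (0.69 ± 0.33, 0.235). The difference of responses passed (2.11 ± 0.43, limma adjusted p = 0.0251).

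The adipocyte list lay above the limit in both models, and did so in 26 of 26 other fits. Its mean log2 CPM was 4.12, 4.07 and 3.59 in db/+ against 4.79, 4.83 and 4.55 in db/db, and 4.54, 4.62, 5.17 and 4.70 in Con+Veh against 5.31, 5.45, 5.78 and 5.81 in STZ-HFD. Neither model's groups overlapped. Of 20 tested genes 16 had a db/db response above 0 and 20 a STZ-HFD response above 0, and 5 and 2 were called. Fabp4, the fatty acid binding protein of fat cells, rose in db/db (35.8 ± 11.4 to 89.6 ± 19.8 CPM, log2 1.36 ± 0.27, limma adjusted p = 0.0237) and had 0.76 ± 0.23 in STZ-HFD (0.0792). Lpl and Retn, which encode lipoprotein lipase and resistin, rose in db/db by 2.10 ± 0.38 and 2.75 ± 0.42 (limma adjusted p = 0.0164 and 0.0115) and had 0.71 ± 0.31 and 0.64 ± 0.35 in STZ-HFD (0.243 and 0.351). The summed CPM of the list was 1291 to 4427 in db/+ and 1711 to 2148 in db/db. It is led by Car3, a carbonic anhydrase of fat and muscle, and without Car3 it was 443 to 772 in db/+, 801 to 1356 in db/db, 875 to 1436 in Con+Veh and 1481 to 2136 in STZ-HFD. Cat, Cd36, Pck1 are also abundant in fat cells, and the part of fat tissue in their rise was not tested.

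The lists of chondrocyte genes and of osteoblast and osteocyte genes lay below the median in both models, past the limit. Chondrocyte genes had medians of -0.53 in db/db and -0.98 in STZ-HFD and kept both signs and both limits in 26 of 26 other fits. Of the 20 genes 0 were called in db/db by limma, with 7 lower at an unadjusted p under 0.05, and 6 were called lower in STZ-HFD. Their mean log2 CPM was 7.50, 7 and 7.57 in db/+ and 6.58, 6.79 and 7.27 in db/db, which overlapped, and 4.50 to 5.63 in Con+Veh and 4.10 to 4.44 in STZ-HFD, which did not. Sox9, the master regulator of chondrocytes, fell in STZ-HFD from 107 ± 31.5 to 37.3 ± 8.63 CPM (log2 -1.53 ± 0.23, limma adjusted p = 0.00419) and stood at 359 ± 118 in db/+ and 231 ± 60.6 in db/db (-0.57 ± 0.31, 0.304). Osteoblast and osteocyte genes (-0.52 and -0.77), nucleus pulposus and notochord genes (-0.71 and -0.45), collagen modification genes (-0.43 and -0.43) and Schwann cell genes (-0.41 and -0.67) lay on the same side. The mineralisation gene Ibsp averaged 1053 ± 290 CPM in db/+ and 570 ± 145 in db/db (-0.90 ± 0.46, limma adjusted p = 0.268), and fell from 186 ± 91.7 to 95.9 ± 61.4 in STZ-HFD (-1.58 ± 0.32, 0.0154). In STZ-HFD the nucleus pulposus median was 0.0183 without Con+Veh replicate 3, and the Schwann cell median was 0.131 with edgeR, 0.153 with DESeq2 and 0.492 with voom without quality weights.

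**Figure D5:**
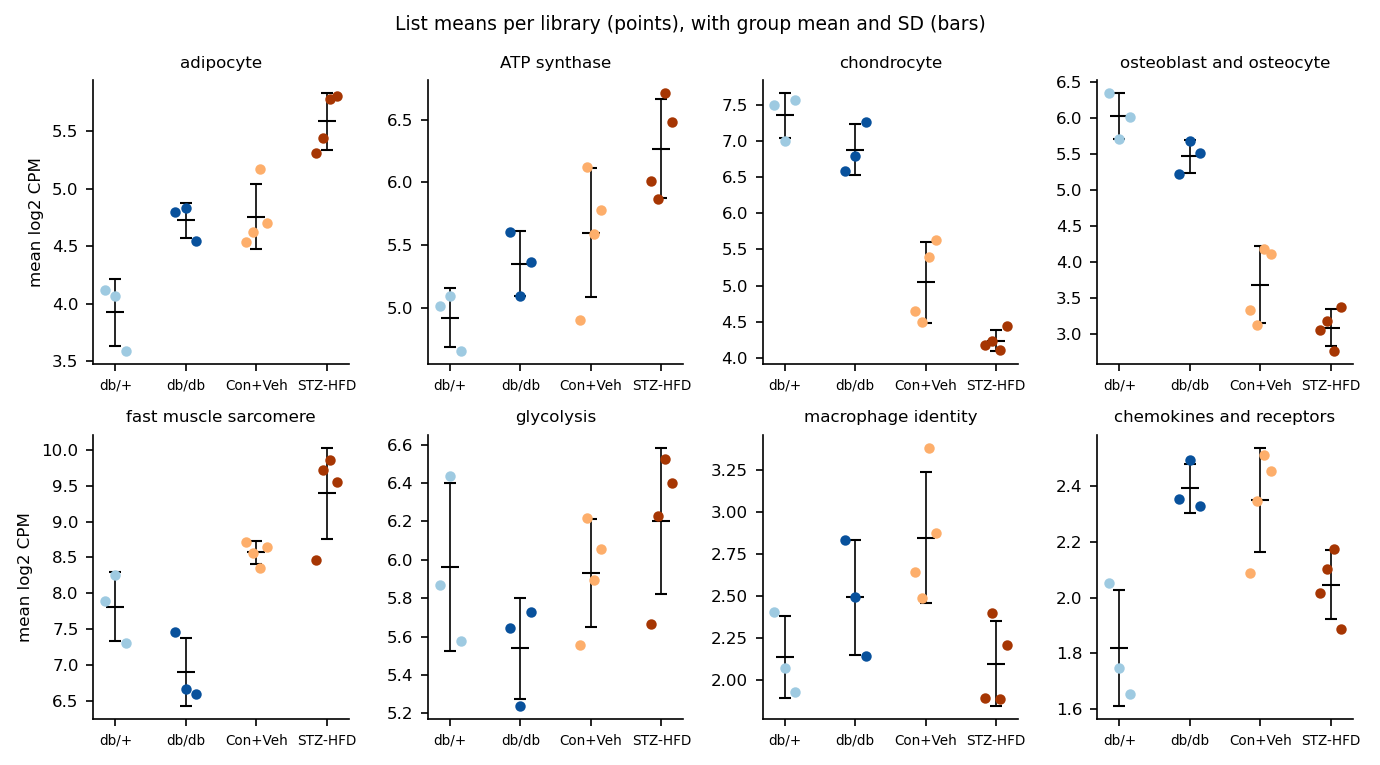
Mean log2 CPM of 8 gene lists (adipocyte, ATP synthase, chondrocyte, osteoblast and osteocyte, fast muscle sarcomere, glycolysis, macrophage identity, chemokines and receptors) in each of the 14 libraries, 1 point per mouse with bars for the group mean and SD. The adipocyte points of the diabetic groups lie above their controls in both models, while the fast muscle mean is 7.81 in db/+ and 6.90 in db/db but 8.57 in Con+Veh and 9.40 in STZ-HFD, with STZ-HFD replicate 1 (8.46) among the controls.

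The 64 genes higher in db/db and lower in STZ-HFD held 4 of 25 macrophage genes, 3 of 23 chemokine and receptor genes and 3 of 22 complement genes. The 107 genes of the reverse pattern held 8 of 22 fast muscle genes. Over all genes tested, 64 of 16915 had the first pattern and 107 of 16915 the reverse. C5ar1, the receptor for the complement fragment C5a on myeloid cells, measured 21.7, 23.3 and 18.6 CPM in db/+ and 58.8, 47.9 and 46.3 in db/db, and 31.3, 27.5, 38.1 and 33.9 in Con+Veh and 9.78, 20.2, 19.8 and 16.6 in STZ-HFD. It rose in db/db and fell in STZ-HFD with no overlap in either, and the difference of responses was -2.26 ± 0.28 (limma adjusted p = 0.0023). Ccl9, a chemokine that draws myeloid cells, rose in db/db from 5.35, 2.66 and 2.95 CPM to 23.8, 14.9 and 11.5 (log2 2.22 ± 0.29, limma adjusted p = 0.00753). In the induced model it was at 10.9, 11.6, 12.6 and 11 CPM in Con+Veh and 7.4, 7.05, 6.58 and 6.57 in STZ-HFD, a change of -0.83 ± 0.27 that did not pass (0.102) although the groups did not overlap. The difference of responses was -3.05 ± 0.40 (limma adjusted p = 0.00232). Cxcl13, the chemokine that attracts B cells, was low everywhere, at 0.295 to 0.718 CPM in db/+, 1.51 to 2.55 in db/db, 1.28 to 3.43 in Con+Veh and 0.124 to 0.493 in STZ-HFD, and its difference of -5.88 ± 0.96 passed (limma adjusted p = 0.0175). These 3 genes were also among the 5 that edgeR's quasi-likelihood test called oppositely, with Ogn and Col8a2.

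The 64 genes, of 16915 tested, also held 2 of 28 proteoglycan genes. Ogn (osteoglycin), a small leucine-rich proteoglycan, measured 20.9, 14.2 and 13.5 CPM in db/+ and 74.3, 35.3 and 43.7 in db/db, and 27.7, 45.5, 48.6 and 44.5 in Con+Veh and 25.7, 16.2, 18.8 and 23.2 in STZ-HFD, so the groups of both models were separate. The difference of responses was -2.77 ± 0.35 (limma adjusted p = 0.0023), and Ogn was called oppositely in 25 of 25 other fits, more often than any other named gene of the set. Dcn (decorin), of the same family, measured 433, 455 and 291 CPM in db/+ and 1089, 449 and 787 in db/db (0.88 ± 0.33, limma adjusted p = 0.147). It fell from 335, 754, 1122 and 989 in Con+Veh to 223, 309, 313 and 349 in STZ-HFD (-1.65 ± 0.26, limma adjusted p = 0.00458), with 1 Con+Veh library inside the STZ-HFD range. Col8a2, a chain of type VIII collagen, was at 16.1 to 23.9 CPM in db/+, 29.7 to 73.4 in db/db, 12.1 to 19.6 in Con+Veh and 4.30 to 6.03 in STZ-HFD, with a difference of -2.66 ± 0.44 (limma adjusted p = 0.0175). Cyp26b1, which degrades retinoic acid, had a difference of -2.13 ± 0.36 and Ndn, an imprinted gene of the MAGE family, one of -1.81 ± 0.31 (limma adjusted p = 0.0176 for each), and both rose in db/db (1.39 ± 0.27 and 1.10 ± 0.22, 0.0228 and 0.0248). The opposite sets leaned on GC content in the way the db/db response did, with a median of 45.8% in the 64 genes higher in db/db and 54.9% in the 107 lower, against 49.1% over all genes. With the GC trend of each library removed, 104 genes were called oppositely.

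The reverse set, lower in db/db and higher in STZ-HFD, held 8 of the 22 fast muscle genes and 107 of all 16915. Mylk4, a myosin light chain kinase of striated muscle, measured 103, 134 and 106 CPM in db/+ and 59.4, 75 and 51.5 in db/db, and 230, 195, 142 and 161 in Con+Veh and 311, 479, 715 and 458 in STZ-HFD, without overlap in either model. It rose in STZ-HFD (1.76 ± 0.22, limma adjusted p = 0.000576), had -0.90 ± 0.25 in db/db (0.0596) and a difference of 2.66 ± 0.33 (0.0023). Myh1, the fast IIx myosin heavy chain, went from 2174, 2196 and 1316 CPM to 823, 598 and 441 in db/db, and from 3269, 2250, 2019 and 2226 to 1854, 5534, 5184 and 4858 in STZ-HFD, where replicate 1 lay below every control. Eef1a2, the elongation factor of muscle and neurons, measured 52.0, 63.6 and 34.8 CPM in db/+ and 31.2, 19.6 and 26.2 in db/db, and 58.3 to 76.0 in Con+Veh and 68.7, 151, 146 and 127 in STZ-HFD, with a difference of 2.01 ± 0.35 (limma adjusted p = 0.0176). Neurl1a, an E3 ubiquitin ligase of the Neuralized family, fell in db/db (13.5, 18.9 and 17.2 to 9.25, 9.10 and 7.90 CPM) and rose in STZ-HFD (24.7, 17.3, 16.1 and 11.8 to 25.9, 34.0, 34.9 and 28.6), with no overlap in either and a difference of 1.97 ± 0.30 (limma adjusted p = 0.012). The import receptor Ipo13 and the deubiquitinase Usp13 had differences of 1.77 ± 0.28 and 2.22 ± 0.37 (limma adjusted p = 0.0175 and 0.0176), and the titin cap gene Tcap one of 2.7 ± 0.44 (0.0175).

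Over the whole fast muscle list, 0 of 22 genes were above 0 in db/db and 22 of 22 in STZ-HFD, and the difference was called for 12, all higher in STZ-HFD, against 22 at an unadjusted p under 0.05, which 8.35% of all genes reached in that direction and 8.94% in the other. Medians were -0.89 and 1.12. The mean log2 CPM was 7.89, 8.25 and 7.30 in db/+ and 7.45, 6.66 and 6.59 in db/db, which overlapped, as did the groups of the induced model. Slow muscle genes did not mirror it in db/db, with medians of 0.11 and 1.26 over 14 genes, and 0 were called in db/db by limma, with 2 higher at an unadjusted p under 0.05, against 7 called higher in STZ-HFD. Glycolysis (-0.32 and 0.65 over 18 genes) was on opposite sides too. Its 4 genes with a called difference were Hk2, Pfkm, Pgam2 and Eno3, all of them forms used by muscle. Pgam2 and Eno3 also belong to the fast muscle list, so these lists are not separate. With the fast muscle score as a covariate, the glycolysis medians were 0.218 and -0.0748 and 44 genes were called oppositely, and r over all genes was -0.375. That fit gives both models 1 slope on a score that moves oppositely in them, so an error of the slope enters the responses with opposite signs.

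Macrophage genes had medians of 0.30 in db/db and -0.97 in STZ-HFD over 25 genes, of which 17 and 0 were above 0. In STZ-HFD 8 were called lower, in db/db 0 were called by limma, with 5 higher at an unadjusted p under 0.05, and the difference was called for Mrc1, Lyve1, Ctss, Fcer1g and Lyz2. Lyz2, the lysozyme of myeloid cells, averaged 30.7 ± 5.15 CPM in db/+ and 63.9 ± 24.9 in db/db (0.98 ± 0.27, limma adjusted p = 0.0606), and fell from 69.9 ± 20.8 to 42.6 ± 6.87 in STZ-HFD (-1.02 ± 0.23, 0.0216). Mrc1, the mannose receptor of tissue macrophages, had 1.05 ± 0.31 and -0.89 ± 0.28, neither of which passed alone (limma adjusted p = 0.0769 and 0.092), and a difference of -1.94 ± 0.42, which did (0.0308). Chemokines and their receptors had 0.27 and -0.61 over the 23 of 68 that were tested, and elastic fibre genes 0.33 and -0.51 over 17. The neutrophil list (1.73 and -1.92) rests on 4 genes of 22, among them Lcn2 at 9.22 ± 6.47 CPM in db/+, 24.2 ± 7.23 in db/db, 11.8 ± 11.9 in Con+Veh and 3.10 ± 1.23 in STZ-HFD, with a difference of -3.47 ± 0.81 (limma adjusted p = 0.0393).

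In 1 model only, by a call there, a called difference and a log2 change under 0.5 in the other model, 71 genes responded. An absent response in the other model is not shown by this. STZ-HFD had 13 higher and 22 lower, and db/db 29 higher and 7 lower. Of the 22 lower, 11 belonged to any list, against 1259 of all 16915 genes tested. They held 2 of 37 glutathione and antioxidant genes and 2 of 27 collagen modification genes, against 22 of all 16915. Prg4 (lubricin), the lubricant of joint surfaces, measured 1352, 454, 1512 and 2127 CPM in Con+Veh and 239, 433, 210 and 218 in STZ-HFD, a change of -2.67 ± 0.30 (limma adjusted p = 0.000182). In db/+ it was at 1441, 1011 and 1470 and in db/db at 1754, 1012 and 1701 (0.19 ± 0.41, limma adjusted p = 0.831), and the difference passed (-2.85 ± 0.50, 0.0176). Spp1 (osteopontin) and Gpx3, the secreted glutathione peroxidase, did the same, with -2.25 ± 0.29 and -2.18 ± 0.25 in STZ-HFD against 0.42 ± 0.39 and 0.03 ± 0.34 in db/db and differences of -2.67 ± 0.49 and -2.21 ± 0.42 (limma adjusted p = 0.0201 and 0.0204). The sheddase Adam10, the elastic fibre protein Fbln1 and the TGF-beta-induced matrix protein Tgfbi had differences of -1.51 to -2.31. Among the genes higher in STZ-HFD, Hk2, the hexokinase of muscle and fat, went from 19.6 ± 5.71 to 41.4 ± 15.0 CPM (1.29 ± 0.24, limma adjusted p = 0.00969), and Gpam, which starts triglyceride synthesis, from 31.7 ± 8.93 to 68.4 ± 27.5 (1.46 ± 0.25, 0.00658). The hemojuvelin gene Hjv, the myosin chaperone gene Unc45b, the mitochondrial coenzyme A carrier Slc25a42 and the myotendinous collagen gene Col22a1 joined them, with responses of 1.28 to 1.56 in STZ-HFD.

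Of the 29 genes higher in db/db alone 4 belonged to any list, against 1259 of all 16915 genes tested, and 1 of the 4 was in the endothelial list. Tek (Tie2), the angiopoietin receptor of endothelium, measured 10.6, 12.6 and 10.5 CPM in db/+ and 32.3, 26.9 and 25.7 in db/db (1.31 ± 0.20, limma adjusted p = 0.0115), against 18.8 to 23.6 in Con+Veh and 19.0 to 27.7 in STZ-HFD (0.07 ± 0.18, 0.868). Its ligand gene Angpt1 was at 4.10 to 5.84 CPM in db/+ and 10 to 15.7 in db/db (1.40 ± 0.24) and at 9.94 to 13.3 in Con+Veh and 9.46 to 12.2 in STZ-HFD (-0.14 ± 0.22). Ednrb, the endothelin B receptor, at 3.56 to 5.62 CPM in db/+ and 12.0 to 12.1 in db/db, and Tfpi, the inhibitor of tissue factor, at 1.15 to 2.28 and 5.42 to 9.98, followed the same course, with differences of -1.52 ± 0.30 and -2.31 ± 0.47 (limma adjusted p = 0.0236 and 0.0247). The endothelial list of 20 genes as a whole had medians of 0.18 and 0.09, within the limit in both models. With the GC trend removed they were 0.441 and 0.124. Ms4a4d, a tetraspanin-like membrane protein gene, responded by 3.19 ± 0.51 (limma adjusted p = 0.0115), from 0.287, 2.00 and 0.824 CPM in db/+ to 10.6, 8.20 and 5.81 in db/db. Among the genes lower in db/db were Hr, a nuclear receptor corepressor (25.7 ± 5.34 to 7.90 ± 2.76 CPM, -1.75 ± 0.30, limma adjusted p = 0.0127), and Prkag3, the AMPK subunit of fast muscle (9.01 ± 1.97 to 2.46 ± 0.404, -1.85 ± 0.36, 0.0228). Prkag3 had 0.18 ± 0.30 in STZ-HFD (limma adjusted p = 0.804).

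Lists past the limit in db/db alone included the cytosolic ribosomal proteins, at 0.38 against -0.20 over 75 genes, the latter running from -0.684 to 0.27 over 26 other fits. In db/db 51 were above 0 and 6 were called higher, in STZ-HFD 16 were above 0 and 1 was called lower, and at an unadjusted p under 0.05 the difference was lower in 33 and higher in 0. Across the 75 genes r between the responses was 0.44, and 0.38 with the GC trend removed. The same sign in both models was seen in 32 of the 75, against 54.1% of all genes. Rps27a rose in db/db from 22.7 ± 3.55 to 69.7 ± 10.2 CPM (1.63 ± 0.28, limma adjusted p = 0.0127) and stood at 53.2 ± 28.6 in Con+Veh and 49.3 ± 11.4 in STZ-HFD (-0.06 ± 0.24, 0.927). Cell cycle genes (-0.36 and -0.05 over 31) were led by Mki67, the proliferation marker, which fell in db/db from 40.1 ± 20.0 to 13.0 ± 1.45 CPM (-1.47 ± 0.31, limma adjusted p = 0.0284). The metallothionein genes Mt1 and Mt2 of the glucocorticoid-responsive list (0.44 and 0.23) rose in db/db by 1.30 ± 0.29 and 1.79 ± 0.44 (limma adjusted p = 0.0327 and 0.045) and had -0.32 ± 0.24 and 0.28 ± 0.40 in STZ-HFD. The circadian list left the limit once the GC trend was removed.

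Among the 21 lists past the limit in STZ-HFD alone, matrix and growth factor lists lay below the median. Cartilage and tendon glycoproteins had -0.21 and -1.30 over 27 genes with 0 called in db/db by limma (1 higher and 6 lower at an unadjusted p under 0.05) and 14 called lower in STZ-HFD. Proteoglycans and link proteins had 0.20 and -0.85 over 28, with 2 called higher and 1 lower in db/db and 11 lower in STZ-HFD. The versican gene Vcan fell in STZ-HFD (-2.76 ± 0.30, limma adjusted p = 0.000163), had -0.68 ± 0.42 in db/db and a difference of -2.09 ± 0.52 (0.0479), so both responses pointed the same way and differed in size. TGF-beta and BMP genes (0.22 and -0.45 over 49) and IGF axis genes (0.22 and -0.38 over 20) leaned apart. Igf1, the growth factor gene itself, averaged 69.7 ± 9.27 CPM in db/+ and 135 ± 36.5 in db/db, and 161 ± 29.2 in Con+Veh and 98.6 ± 31.3 in STZ-HFD, and its difference of -1.64 ± 0.34 passed (limma adjusted p = 0.0266) while neither response did (0.0738 and 0.069). MHC and antigen presentation genes (-0.24 and -0.83), complement (0.20 and -0.66), hedgehog genes (-0.19 and -0.67), fatty acid and cholesterol synthesis (0.07 and -0.49) and fibrillar collagens (-0.23 and -0.51) were the other lists below the median named here. Wnt, hypoxia, immediate early, interferon-stimulated, NF-kB, unfolded protein and endothelial genes were among the 12 lists within the limit in both models. With the GC trend removed, complement (0.435 and -0.683), IGF axis (0.377 and -0.387) and TGF-beta and BMP genes (0.253 and -0.453) lay on opposite sides. Endothelial (0.441), immediate early (0.316) and basement membrane collagen genes (0.283) then passed the limit in db/db.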

How the data were processed

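The authors deposited 1 table of raw gene counts for 14 libraries. Per the submitters' processing notes the tools were bcl2fastq, STAR, Subread featureCounts and Salmon on GRCm38, and the strand setting is not given in the sources used here. The table had 55774 lines, of which 287 were identical repeats and were dropped, leaving 55487 genes. A transcript table was not used.

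Counts were scaled by TMM (edgeR 4.0.16) in R 4.3.3, genes with over 1 CPM in at least 3 libraries were kept, and 4 group means were fitted with voom and library quality weights in limma 3.58.1. P-values were adjusted by Benjamini-Hochberg over all genes tested, and every "limma adjusted p" is from this fit. A call needs an adjusted p under 0.05 and a log2 change of at least 1. Genes named were protein-coding, up to 8 per direction for shared and opposite responses, 6 per model and direction for responses in 1 model, and 3 per list, ranked by moderated t. Igf1, Vcan and other list members were named by the rule for lists.

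The comparison, the gene lists and the named genes were chosen with earlier results of these data known. Totals of 16076908 to 58943169 counts per library set the counting error. Groups and replicate numbers came from the labels. The numbers did not pair libraries. Other fits used DESeq2 1.42.0 or edgeR's quasi-likelihood test, left out the quality weights, or took other scaling and filters, with each model alone, a replicate block, GC correction, fewer libraries and a muscle covariate as further alternatives. The scripts were tested on simulated data. Python 3.11.15 was used for summaries. A gene that the rule selected is not reported here.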

Additional observations from a re-analysis of the deposited data

Results flagged for a closer look

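In groups of 4 libraries, 12 of 208 values tested had 1 library far from the other 3 by Dixon's test, where chance marks about 1 in 20. Con+Veh replicate 1 had a mean log2 CPM for the list cytosolic ribosomal proteins at 5.72 (others 6.51 to 6.57), a mean log2 CPM for the list V-ATPase and cathepsins at 3.15 (others 4.07 to 4.12) and a mean log2 CPM for the list circadian clock at 5.46 (others 5.05 to 5.08). Con+Veh replicate 4 had a mean log2 CPM for the list epidermis at 1.83 (others 3.39 to 3.56). Con+Veh replicate 2 had a mean log2 CPM for the list hedgehog pathway at 3.78 (others 4.35 to 4.38) and Hk2 at 28.1 CPM (others 16.2 to 17.2). STZ-HFD replicate 2 had a mean log2 CPM for the list elastic fibre and microfibril at 4.51 (others 3.74 to 3.79), a mean log2 CPM for the list neutrophil granule at 0.394 (others 0.856 to 0.93), a mean log2 CPM for the list MHC class II and antigen presentation at 2.83 (others 2.43 to 2.5) and Prg4 at 433 CPM (others 210 to 239). STZ-HFD replicate 1 had a mean log2 CPM for the list cell cycle at 1.86 (others 0.603 to 0.739). STZ-HFD replicate 3 had Col8a2 at 6.03 CPM (others 4.3 to 4.58).

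The responses of the models differed, by a test of the difference itself in the fit of all 14 libraries (limma adjusted p under 0.05), for the 39 genes named as opposite or as responding in 1 model, which were chosen by that difference. The STZ-HFD response minus the db/db response (log2) was C5ar1 -2.26, Ogn -2.77, Ccl9 -3.05, Cxcl13 -5.88, Col8a2 -2.66, Dcn -2.53, Cyp26b1 -2.13 and Ndn -1.81. For genes of 1 model it was Prg4 -2.85, Spp1 -2.67, Gpx3 -2.21, Adam10 -1.51, Fbln1 -2.31, Tgfbi -1.95, Ms4a4d -3.59 and Ednrb -1.52. The same quantity was Tfpi -2.31, Gdap2 -1.89, Angpt1 -1.54 and Tek -1.24. In the other direction this difference was Mylk4 2.66, Neurl1a 1.97, Myh1 2.77, Ipo13 1.77, Tcap 2.7, Usp13 2.22 and Eef1a2 2.01. For genes of 1 model it was Slc25a42 1.69, Gpam 1.78, Col22a1 1.97, Hjv 1.82, Unc45b 1.76, Hk2 1.54, Hr 1.9 and Slc25a25 1.79. The same quantity was Prkag3 2.03, Sbk1 1.42, Padi2 1.64 and Klhl21 1.7.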

How the results depend on the processing

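The fit reported above had r = 0.0779, rho = 0.0923, 54.1% same sign, 56.7% same sign at unadjusted p under 0.05 in both, 281 db/db calls, 441 STZ-HFD calls, 299 difference calls, 225 average calls, 11 shared genes, 171 opposite genes, 249 genes together by the sum, 71 genes of 1 model, 9 lists on the same side, 6 lists on opposite sides and 27 lists of 1 model. The values that moved under each other setting follow, and the counts by the sum were chosen after seeing the data. edgeR's quasi-likelihood test gave r = 0.0204, rho = 0.0294, 51.0% same sign, 45.2% same sign at unadjusted p under 0.05 in both, 0 db/db calls, 29 STZ-HFD calls, 5 difference calls, 2 average calls, 0 shared genes, 5 opposite genes, 2 genes together by the sum and 0 genes of 1 model. DESeq2 gave r = 0.0227, rho = 0.0304, 51.0% same sign, 46.0% same sign at unadjusted p under 0.05 in both, 277 STZ-HFD calls, 141 average calls, 4 shared genes and 108 genes together by the sum. voom without quality weights gave r = 0.0352, rho = 0.0258, 51.0% same sign, 9 db/db calls, 19 STZ-HFD calls, 3 difference calls, 9 average calls, 0 shared genes, 3 opposite genes, 6 genes together by the sum and 0 genes of 1 model. edgeR's filterByExpr gave r = 0.0276, rho = 0.0413, 217 STZ-HFD calls, 154 difference calls, 4 shared genes, 107 opposite genes, 157 genes together by the sum and 23 genes of 1 model. No filter gave r = 0.0326, 58.6% same sign, 534 db/db calls, 130 STZ-HFD calls, 1 shared gene, 142 genes together by the sum, 35 genes of 1 model, 20 lists on the same side and 3 lists on opposite sides. The fast muscle score as a covariate gave r = -0.375, rho = -0.321, 40.1% same sign, 9.69% same sign at unadjusted p under 0.05 in both, 88 STZ-HFD calls, 44 difference calls, 0 shared genes, 44 opposite genes, 59 genes together by the sum, 0 genes of 1 model, 14 lists on the same side and 11 lists on opposite sides. Removal of the GC trend gave 158 db/db calls, 190 difference calls, 6 shared genes and 104 opposite genes. Each model fitted alone gave 235 STZ-HFD calls and 1 shared gene. Leaving out the 2 libraries whose names share an ending (Con+Veh replicate 2 and STZ-HFD replicate 4) gave 244 STZ-HFD calls, 114 difference calls, 63 opposite genes and 32 genes of 1 model. Protein-coding genes outside the muscle, adipocyte and ribosomal protein lists had r = 0.12. A limit of 0.5 for lists gave 4 lists on the same side and 2 lists on opposite sides. At an unadjusted p under 0.05, edgeR had 1891, 2136 and 1991 genes in the db/db response, the STZ-HFD response and their difference, voom without weights 2322, 1748 and 1991, and the muscle covariate 3255, 2694 and 2740.

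With 1 library left out, the lowest and highest values were r -0.0124 (without STZ-HFD 3) to 0.118 (without STZ-HFD 2), rho -0.00716 (without STZ-HFD 3) to 0.149 (without STZ-HFD 2), the percent with the same sign 50.2 (without STZ-HFD 3) to 56.6 (without STZ-HFD 2) and that percent at unadjusted p under 0.05 in both 41.0 (without STZ-HFD 3) to 68.5 (without STZ-HFD 2). For calls they were db/db calls 21 (without db/+ 2) to 392 (without Con+Veh 2), STZ-HFD calls 17 (without Con+Veh 3) to 642 (without Con+Veh 2), difference calls 4 (without Con+Veh 3) to 423 (without STZ-HFD 1) and average calls 27 (without STZ-HFD 3) to 408 (without Con+Veh 2). For sets of genes they were shared genes 0 (without Con+Veh 3) to 37 (without Con+Veh 2), opposite genes 4 (without Con+Veh 3) to 247 (without STZ-HFD 1), genes together by the sum 22 (without STZ-HFD 3) to 509 (without Con+Veh 2) and genes of 1 model 0 (without Con+Veh 3) to 107 (without Con+Veh 1), with 0 shared genes also without Con+Veh 4 and without STZ-HFD 3. For lists they were lists on the same side 7 (without STZ-HFD 4) to 18 (without db/db 3), lists on opposite sides 5 (without STZ-HFD 4) to 9 (without db/db 2) and lists of 1 model 17 (without db/db 3) to 31 (without STZ-HFD 4). Without Con+Veh 3 limma had 3531, 1431 and 2102 genes at an unadjusted p under 0.05.

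Same-numbered libraries deviated from their group means with correlations of 0.192, -0.28 and -0.185 in the Lepr model and -0.0422, -0.26, -0.0776 and -0.0627 in the induced one, so the replicate numbers do not pair the libraries. With the number as a replicate block the fit gave r = 0.125, rho = 0.154, 56.6% same sign, 66.9% same sign at unadjusted p under 0.05 in both, 1484 db/db calls, 6 STZ-HFD calls, 2 difference calls, 126 average calls, 1 shared gene, 1 opposite gene, 94 genes together by the sum, 0 genes of 1 model, 17 lists on the same side and 3 lists on opposite sides, and 5940, 968 and 1470 genes at an unadjusted p under 0.05 in the responses and their difference.

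Lists whose median lay past 0.25 in size in a response and changed sign follow. For glycolysis the db/db response was 0.218 (the muscle covariate). For glycolysis the STZ-HFD response was -0.0748 (the muscle covariate). For mitochondrial ribosome the STZ-HFD response was -0.00839 (the muscle covariate). For mitochondrial genome the STZ-HFD response was -0.0143 (voom without weights) and -0.0486 (without STZ-HFD 4), ranging from -0.0486 to 0.925 with 1 library left out. For proteasome the STZ-HFD response was -0.121 (the muscle covariate). For matrix proteases and inhibitors the STZ-HFD response was 0.022 (no filter). For fast muscle sarcomere the db/db response was 0.192 (the muscle covariate). For slow muscle sarcomere the STZ-HFD response was -0.0372 (the muscle covariate). For Schwann cell and myelin the STZ-HFD response was 0.131 (edgeR), 0.153 (DESeq2) and 0.492 (voom without weights). For nucleus pulposus and notochord the STZ-HFD response was 0.396 (the muscle covariate) and 0.0183 (without Con+Veh 3), ranging from -0.703 to 0.0183 with 1 library left out. For B and T lymphocyte the STZ-HFD response was 0.0034 (edgeR), 0.00584 (DESeq2), 0.44 (voom without weights), 0.24 (no filter) and 0.0462 (the muscle covariate). For IGF axis the STZ-HFD response was 0.0439 (no filter). Single genes with a changed sign follow. For Cox7a2l the STZ-HFD response was -0.0237 (the muscle covariate) and -0.0199 (without STZ-HFD 3), ranging from -0.0199 to 0.558 with 1 library left out. For Eno3 the difference was -0.0381 (the muscle covariate). For Bckdk the STZ-HFD response was -0.0895 (the muscle covariate). For mt-Co2 the STZ-HFD response was -0.244 (edgeR), -0.236 (DESeq2), -0.35 (voom without weights), -0.0946 (the 2 libraries left out), -0.0832 (the muscle covariate) and -0.222 (without STZ-HFD 4), ranging from -0.222 to 0.736 with 1 library left out. For Psmb6 the STZ-HFD response was -0.012 (the muscle covariate). For Casq1 the difference was -0.0306 (the muscle covariate). For Pmp22 the db/db response was 0.172 (the replicate block), 0.243 (the muscle covariate) and 0.504 (without db/+ 2), ranging from -0.724 to 0.504 with 1 library left out. For Prx the STZ-HFD response was 0.398 (edgeR), 0.433 (DESeq2), 0.779 (voom without weights) and 0.171 (without STZ-HFD 4), ranging from -1.62 to 0.171 with 1 library left out. For Pax1 the db/db response was -0.589 (the muscle covariate) and -0.2 (without db/db 3), ranging from -0.2 to 0.931 with 1 library left out. For Krt80 the STZ-HFD response was 0.305 (the muscle covariate) and 0.0555 (without Con+Veh 3), ranging from -0.755 to 0.0555 with 1 library left out. For Lgals3 the STZ-HFD response was 0.0192 (without Con+Veh 3), ranging from -0.982 to 0.0192 with 1 library left out. For Blnk the STZ-HFD response was 0.0181 (the muscle covariate). For Thy1 the STZ-HFD response was 0.0135 (DESeq2) and 0.0864 (voom without weights). The causes of these changes were not tested. Apart from leaving out 1 library, 18 of these list medians and 20 named gene values changed sign, 53 medians moved by more than the spread between replicates with the sign kept, 637 gene values kept their sign and no longer passed the threshold, and 25 newly passed it. Of medians within 0.25, 18 in db/db and 18 in STZ-HFD changed sign in some fit, among them the STZ-HFD medians of cytosolic ribosomal proteins (-0.684 to 0.27), circadian clock genes (-0.332 to 0.344) and glucocorticoid-responsive genes (-0.335 to 0.478).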
